A study of Castanea mollissima with 7 samples.

Results

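The most abundant transcripts of Chinese chestnut embryos were the 58 gene models, of 33991 in the table, whose mean level over 5 distinct embryo libraries was at least 1000 FPKM. The unit counts fragments relative to the length of the gene model and the size of the library, so levels of different genes can be set side by side. The genes were thus chosen by their level, and how high they are is a description and not a finding. All libraries came from embryos of Castanea mollissima, made from total RNA with a strand-specific kit. One library (embryo 7) carries the title code yh and was measured once. The other libraries carry the title code ys (embryos 1 to 6). The labels do not say what the codes stand for, and they name no cultivar, tree, tissue part, age or treatment. Nor do they say if trees or nuts differed between ys samples, so p-values measure the spread between these libraries alone, which may be technical.

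In seed plants whose reserves lie in the embryo, the cotyledons fill late in development with starch, protein or oil. A few gene families are known to dominate the messenger pool of such embryos: storage globulins and albumins, which are packed into vacuoles as a nitrogen reserve; late embryogenesis abundant proteins, which protect cells as they lose water; and oil body proteins. Genes that every growing cell uses at high level, such as those of ribosomal proteins and translation factors, are the other usual source of abundant transcripts. The table pairs its gene IDs with no names, so which of the 58 genes belong to these families is not known here. Genes are given by ID, and no function is assigned to any of them.

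The columns of ys 3 and ys 4 held the same values as those of ys 1 and ys 2 for all 33991 gene models, and each such pair was counted as 1 library. This left yh and 4 ys libraries, numbered 1, 2, 5 and 6 after their embryos. Each library's FPKM summed to between 949293 and 961398, which is more even than FPKM usually is, and the program that computed it is not given in the sources used here. Read depth is not known, so no counting interval is given. In bulk tissue, a lower level can mean fewer cells of a type or less RNA per cell, and these cannot be told apart.

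The 58 genes held 13.87% of all FPKM in yh and 13.75% ± 0.457 in ys (SD, n = 4), although they are 0.171% of the gene models. Levels were steeply graded. A single gene had a mean above 10000 FPKM, 4 lay between 5000 and 10000 FPKM, 4 between 3000 and 5000 FPKM, 7 between 2000 and 3000 FPKM, 12 between 1500 and 2000 FPKM and 30 between 1000 and 1500 FPKM. Their median level was 1487 FPKM, against 2.21 FPKM for all gene models. The 10 highest genes took 6.03% of all FPKM in yh and 6.10% ± 0.161 in ys (SD, n = 4).

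Cm11G01270 was first in every library. It had 15701 FPKM in yh, against 13432 FPKM in ys 1, 15570 FPKM in ys 2, 15579 FPKM in ys 5 and 16014 FPKM in ys 6. Only ys 1 stood low, and the highest library exceeded the lowest 1.19-fold. Its mean was 1.82 times that of the second gene and 14.9 times that of the lowest of the 58.

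The next genes in order changed places between libraries. Cm07G00159 had 7322 FPKM in yh, against 9423 FPKM in ys 1, 9520 FPKM in ys 2, 7655 FPKM in ys 5 and 8102 FPKM in ys 6. Cm02G01201 had 8941 FPKM in yh, against 6385 FPKM in ys 1, 6077 FPKM in ys 2, 9731 FPKM in ys 5 and 8252 FPKM in ys 6. Cm07G00159 was therefore the higher of both genes in ys 1 and ys 2, and Cm02G01201 in yh, ys 5 and ys 6.

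Below them, Cm01G00267 had 5110 FPKM in yh and 5134 ± 649 FPKM in ys (SD, n = 4). Cm05G02712 had 4618 FPKM in yh and 5177 ± 441 FPKM in ys (SD, n = 4). These levels overlapped across libraries, and the order of the genes was not the same in all of them. Cm09G00328 had 4372 FPKM in yh, above each ys library, and 3798 ± 218 FPKM in ys (SD, n = 4).

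Cm02G00686, Cm04G00014, Cm11G02394 and Cm08G01901 complete the leading 10. Cm02G00686 had 3074 FPKM in yh and 3299 ± 245 FPKM in ys (SD, n = 4). Cm11G02394 had 3100 FPKM in yh and 3089 ± 473 FPKM in ys, and Cm08G01901 had 3319 FPKM in yh and 2911 ± 397 FPKM in ys. Their ranges overlapped as well. Cm04G00014, which varied most of these 10, is described with its ID neighbour.

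Few steps in this order were clear of the spread between libraries. Of the 57 pairs of genes next to each other by mean level, 3 had ranges that did not meet: Cm11G01270 above Cm07G00159, Cm02G01201 above Cm01G00267, and Cm05G02712 above Cm09G00328. Of all 1653 pairs among the 58 genes, 1235 (74.7%) kept the same order in the 5 libraries.

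The set itself depends somewhat on the library. Of the 58 genes, 48 reached 1000 FPKM in every library and 10 fell short in at least 1. Single libraries held 69 gene models at or above 1000 FPKM in yh, against 58 models in ys 1, 59 models in ys 2, 70 models in ys 5 and 68 models in ys 6. Ranked within each library, 47 of the 58 genes were among the leading 58 in every library, and the lowest rank of any of them was 127. Just inside the threshold, Cm01G03911 had a mean of 1035 FPKM, Cm10G01579 1034 FPKM and Cm08G01775 1025 FPKM. Just outside it, Cm11G01985 had a mean of 995.5 FPKM, Cm04G00801 995.1 FPKM and Cm05G01045 993.7 FPKM.

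**Figure D1:**
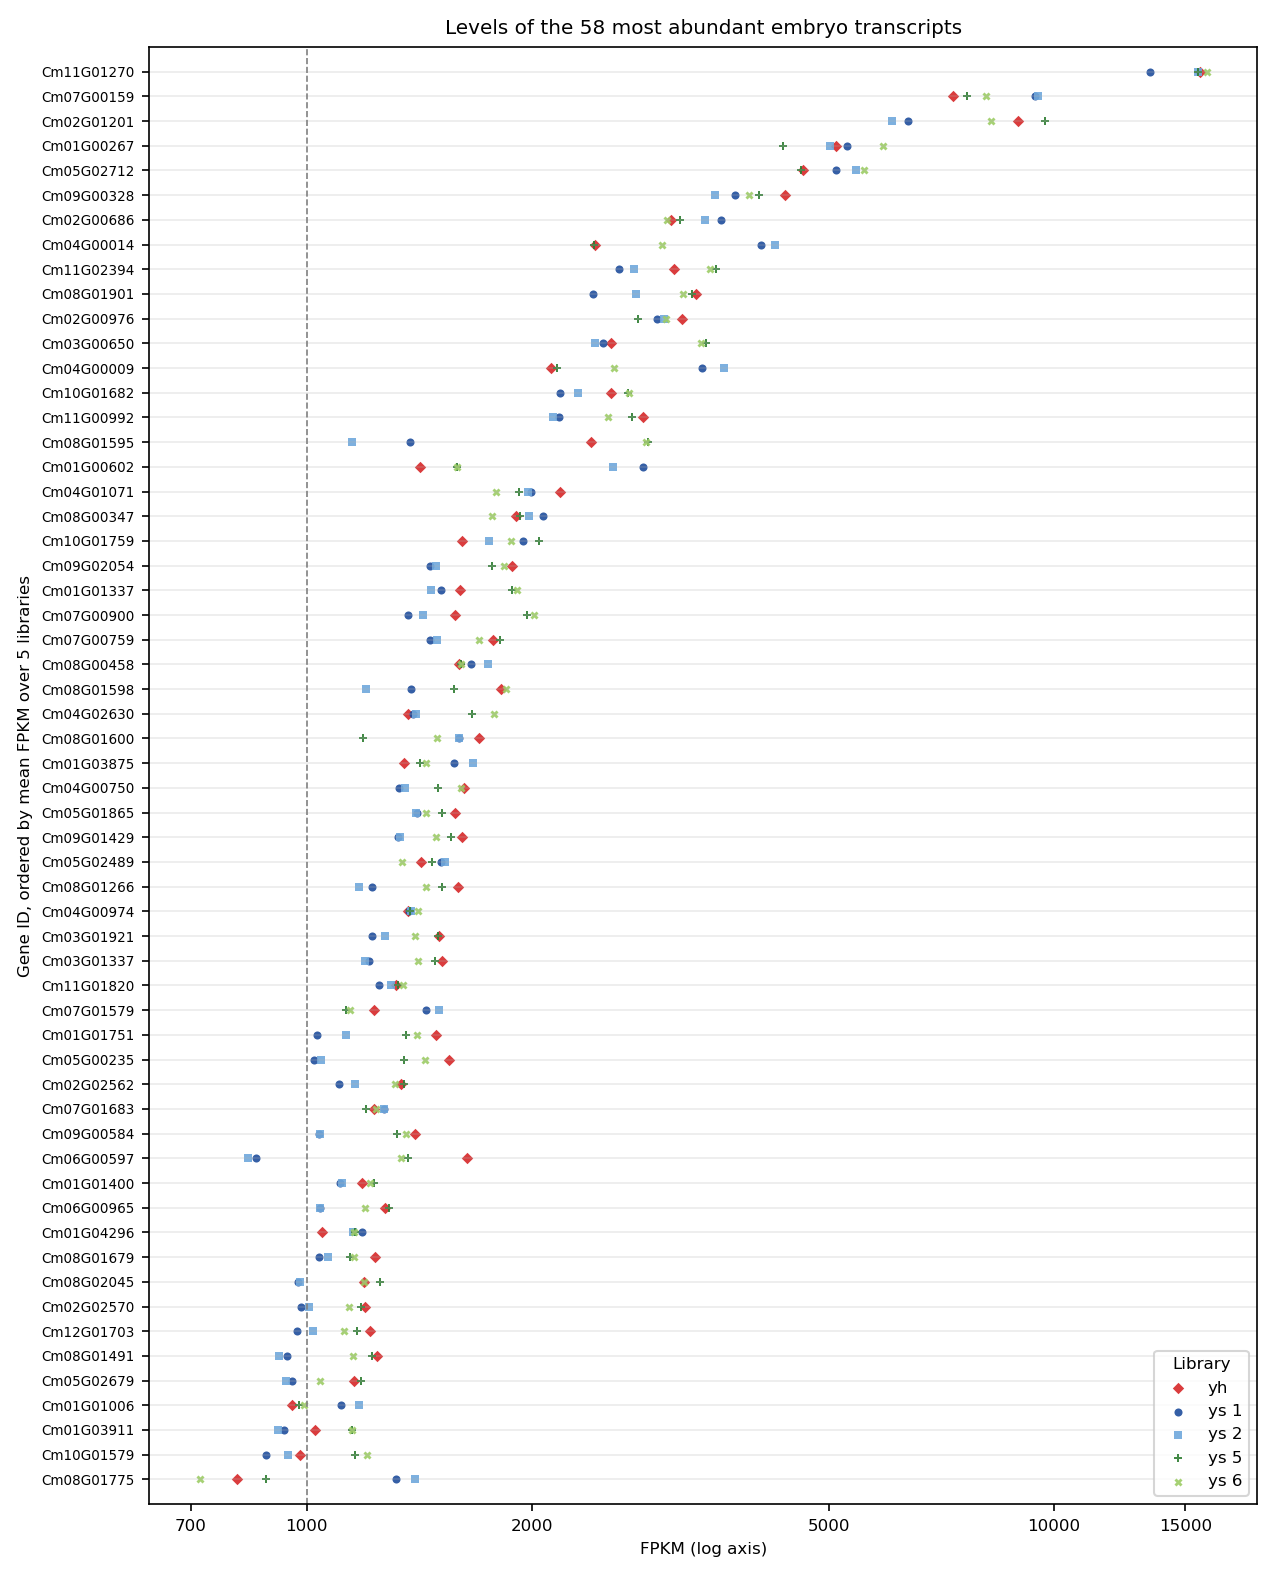
FPKM on a log axis of each of the 58 genes in the 5 libraries, with 1 symbol per library, the genes ordered by their mean and a dashed line at 1000 FPKM. Cm11G01270 stands apart on the right, most genes lie between 1000 and 2000 FPKM, and 10 genes have at least 1 library left of the line.

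The ys libraries fell into 2 pairs for most of these genes. The run numbers in the titles follow the same division: ys 1 and ys 2 are numbered next to each other in an earlier block, and ys 5, yh and ys 6 run in sequence in a later one. The columns identical to ys 1 and ys 2 carry numbers of the later block too. What a block of run numbers stands for is not stated, and a difference tied to it cannot be told apart from any other difference between the pairs. Both of ys 1 and ys 2 lay below both of ys 5 and ys 6 in 37 of the 58 genes (63.8%), where 26.8% of the 18871 genes tested (those averaging 1 FPKM or more) did so. They lay above in 15 (25.9%), where 42.7% of all those genes did so, and the ranges met in the other 6. Among the 1823 genes averaging 100 to 1000 FPKM, 45.5% were below and 31.8% above.

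The count was compared under other choices of genes, since the mean that chose the 58 weighs 3 libraries besides ys 1 and ys 2. With both ys pairs weighed equally and yh left out, 61 genes averaged at least 1000 FPKM, of which 38 were below (62.3%) and 17 above (27.9%). Genes at or above 1000 FPKM by ys 1 and ys 2 alone numbered 56, of which 29 were below (51.8%) and 21 above (37.5%). Chosen by ys 5 and ys 6 alone they numbered 69, with 50 below (72.5%) and 13 above (18.8%). Chosen by yh alone they also numbered 69, with 50 below and 13 above, but yh is itself nearer to ys 5 or ys 6 in most genes. A choice by a single pair favours genes that are higher in that pair. Quantile normalisation gave 29 below and 19 above among the 58, and the share of all genes tested was not computed under it. No test was made between the pairs.

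Most of these shifts were small. The median difference, ys 1 and ys 2 minus ys 5 and ys 6, was -0.21 on the log2(FPKM + 1) scale over the 58 genes, against 0.05 over the 18871 genes. Of the 37 genes lower in ys 1 and ys 2, 22 differed by more than 1.2-fold and 2 by more than 1.5-fold. Of the 15 higher genes, the like counts were 6 and 3. Shares of all genes tested past these fold sizes were not computed, so these counts do not set the 58 genes apart from others.

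Cm08G01595 had the widest range of all. It had 2404 FPKM in yh, against 1376 FPKM in ys 1, 1151 FPKM in ys 2, 2859 FPKM in ys 5 and 2847 FPKM in ys 6. The level in ys 5 and ys 6 was 2.27 times that in ys 1 and ys 2, and yh lay between the pairs. This was the only one of the 58 genes whose highest library was more than 2-fold above its lowest (2.48-fold, against a median of 1.26-fold).

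Cm06G00597 was the other gene lower by more than 1.5-fold in ys 1 and ys 2. It had 1641 FPKM in yh, against 855.4 FPKM in ys 1, 835.7 FPKM in ys 2, 1365 FPKM in ys 5 and 1336 FPKM in ys 6. Here yh was the highest library.

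The opposite shift was largest in Cm08G01775 and Cm01G00602. Cm08G01775 had 807.6 FPKM in yh, against 1317 FPKM in ys 1, 1396 FPKM in ys 2, 883.4 FPKM in ys 5 and 719.2 FPKM in ys 6. It reached 1000 FPKM in ys 1 and ys 2 alone, and theirs was 1.70 times the level of ys 5 and ys 6. Cm01G00602 had 1416 FPKM in yh, against 2818 FPKM in ys 1, 2572 FPKM in ys 2, 1589 FPKM in ys 5 and 1590 FPKM in ys 6, so that yh was lowest and ys 1 and ys 2 stood 1.69-fold above ys 5 and ys 6.

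Other genes hardly moved among the ys libraries. Cm04G00974 had 1367 FPKM in yh, against 1372 FPKM in ys 1, 1380 FPKM in ys 2, 1377 FPKM in ys 5 and 1408 FPKM in ys 6. Its highest library was 1.03 times its lowest, and its SD over ys, 0.017 on the log2(FPKM + 1) scale, was the smallest of the 58. Cm01G04296 followed with 1049 FPKM in yh and 1164 ± 13.8 FPKM in ys (SD, n = 4), and yh was below every ys library. Cm07G01683 had 1230 FPKM in yh and 1244 ± 34.1 FPKM in ys (SD, n = 4), and yh lay within the ys range.

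Over the 4 ys libraries, the median SD was 0.157 on the log2(FPKM + 1) scale for the 58 genes, 0.093 for genes averaging 100 to 1000 FPKM and 0.128 for all 18871 genes. An SD above 0.3 was found in 7 of the 58 genes (12.1%), in 6.69% of those averaging 100 to 1000 FPKM and in 14.2% of all 18871. These shares were not tested against each other.

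**Figure D2:**
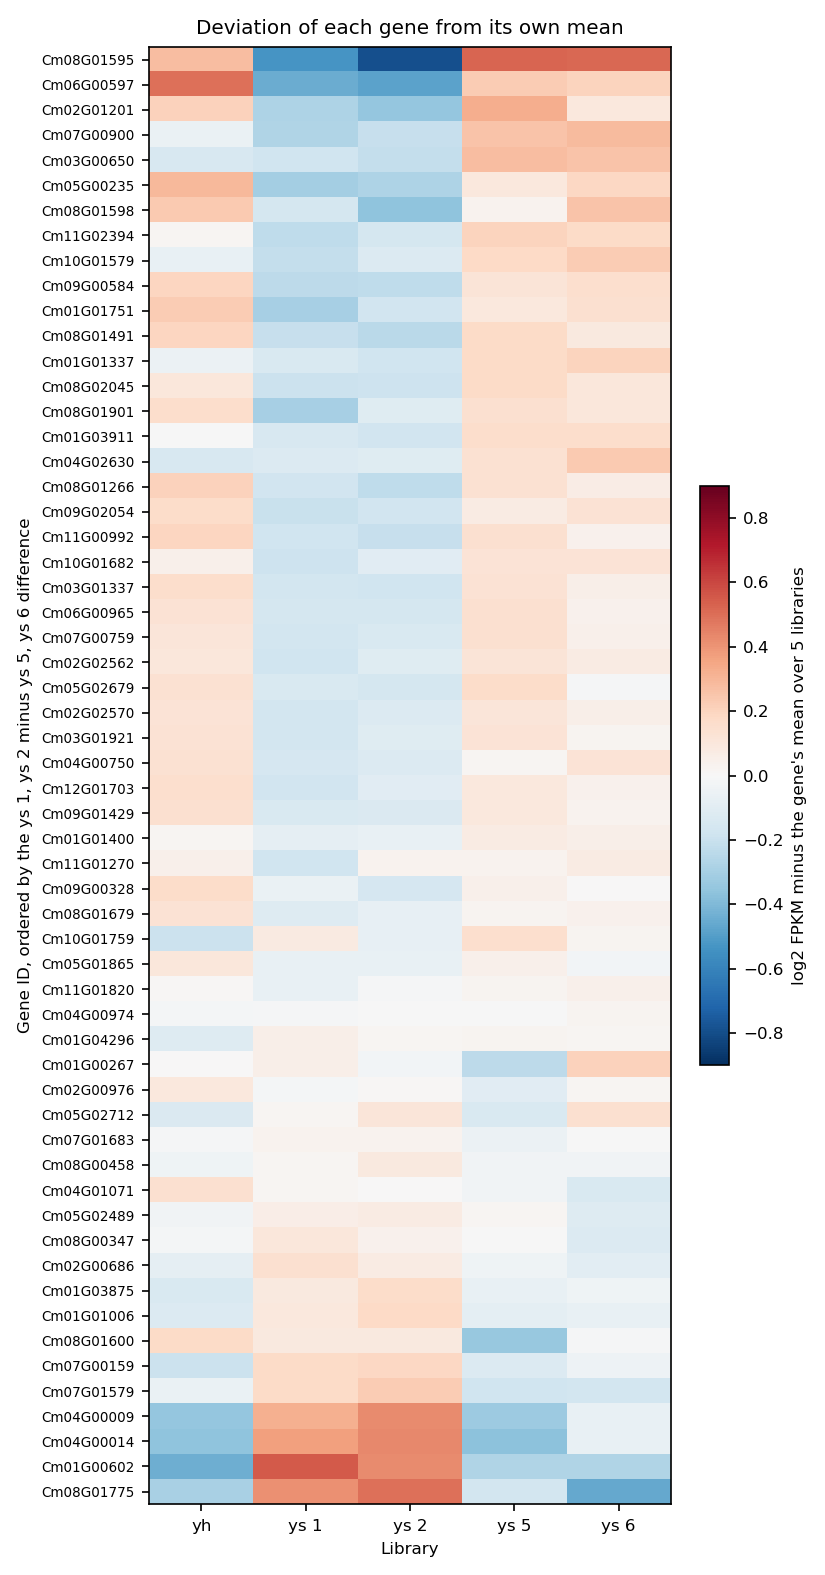
Log2 FPKM of each of the 58 genes (rows) in the 5 libraries (columns), as the difference from the gene's own mean, with red above and blue below it. Rows run from genes low in ys 1 and ys 2 at the top, led by Cm08G01595, to genes high in them at the bottom, and yh resembles ys 5 and ys 6 in most rows.

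The yh library was then compared with ys, the only contrast of title codes in the labels. None of the 58 genes passed the test. By limma on log2(FPKM + 1), 0 of 58 had an adjusted p under 0.05, where 0.0106% of the 18871 genes tested did, and the lowest adjusted p among the 58 was 0.98. At an unadjusted p under 0.05 there were also 0 of 58, where 3.93% of all genes tested passed. With a single yh library, the spread comes from ys alone, and the split of ys into pairs widens it. The median half-width of the 95% confidence interval was 0.46 on the log2 scale, so differences of modest size could not be shown here, and the missed threshold does not show that levels were equal.

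The fold changes ran from -0.55 to 0.62 on the log2(FPKM + 1) scale, and their median was 0.085, against -0.013 over all genes tested. The library yh was higher than the ys mean in 35 of the 58 genes (60.3%), in 57.2% of the genes averaging 100 to 1000 FPKM and in 46.6% of all genes tested. It lay above all 4 ys libraries in 21 genes (36.2%), where 19.6% of all genes tested did, and below them all in 10 (17.2%), where 20.7% did. Among the genes averaging 100 to 1000 FPKM, it lay above in 28.0% and below in 15.2%. In the other 27 it lay inside the ys range. The mean that chose the 58 genes includes yh, which favours genes high in that library. These shares were not computed for genes chosen without it.

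At the upper end, Cm06G00597 had a log2 difference of 0.62 (SE 0.34, limma adjusted p = 0.98), and yh exceeded each ys library. Cm05G00235 came next. It had 1550 FPKM in yh, against 1023 FPKM in ys 1, 1044 FPKM in ys 2, 1352 FPKM in ys 5 and 1438 FPKM in ys 6. Again yh was highest, but ys 5 and ys 6 were nearer to it than to ys 1 and ys 2, and the log2 difference was 0.37 (SE 0.23, limma adjusted p = 0.98).

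At the lower end, Cm01G00602 had a log2 difference of -0.55 (SE 0.39, limma adjusted p = 0.98), and every ys library exceeded yh. Cm04G00014 had 2435 FPKM in yh, against 4052 FPKM in ys 1, 4237 FPKM in ys 2, 2423 FPKM in ys 5 and 2989 FPKM in ys 6. The library yh was next to ys 5 and far from ys 1 and ys 2, with a log2 difference of -0.46 (SE 0.35, limma adjusted p = 0.98).

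These 4 genes show the same layout: the level in yh was on the side of ys 5 and ys 6. Over the 58 genes, yh was nearest to ys 1 in 6 genes and to ys 2 in 6 genes, but to ys 5 in 30 genes and to ys 6 in 16 genes. It was ys 5 or ys 6 in 79.3% of them, in 74.3% of genes averaging 100 to 1000 FPKM and in 67.9% of all genes tested. Of the 37 genes lower in ys 1 and ys 2, yh exceeded both of these libraries in 36, and the exception was Cm04G02630. Among all genes tested that were split in this direction, yh did so in 84.2%, and among those averaging 100 to 1000 FPKM in 91.0%. Of the 15 genes higher in ys 1 and ys 2, yh was below both in 13, and the exceptions were Cm04G01071 and Cm08G01600. The share among all genes tested that were split this way was 85.0%, and among those averaging 100 to 1000 FPKM it was 86.6%.

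**Figure D3:**
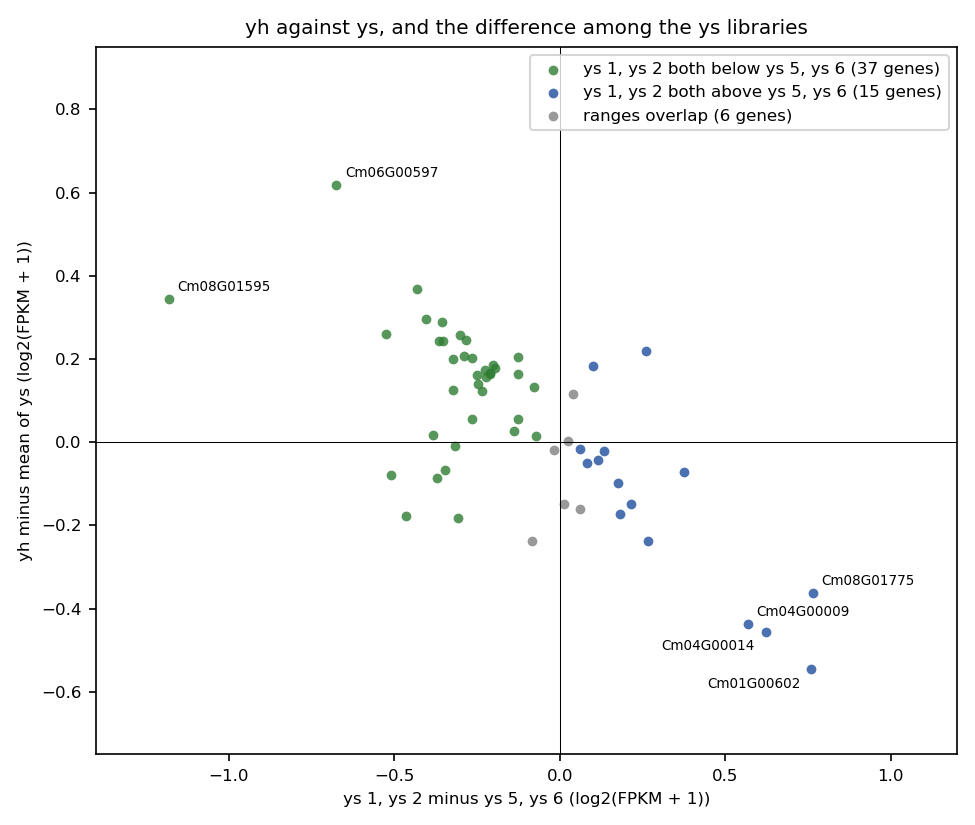
Each point is 1 of the 58 genes, with the difference of ys 1 and ys 2 from ys 5 and ys 6 on the horizontal axis and the difference of yh from the ys mean on the vertical axis, both on the log2(FPKM + 1) scale. The axes share the ys libraries, so a downward slope follows wherever yh is near ys 5 and ys 6; the vertical values run from -0.55 to 0.62, and no gene passed limma's test.

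In 6 of the 37 genes, yh lay closer to ys 1 or ys 2 than to ys 5 or ys 6. They were Cm03G00650, Cm01G01337, Cm07G00900, Cm04G02630, Cm01G03911 and Cm10G01579, grouped after their values were seen. Cm03G00650, the highest of them, had 2556 FPKM in yh, against 2492 FPKM in ys 1, 2434 FPKM in ys 2, 3422 FPKM in ys 5 and 3371 FPKM in ys 6. Cm07G00900 had 1582 FPKM in yh, against 1366 FPKM in ys 1, 1433 FPKM in ys 2, 1974 FPKM in ys 5 and 2012 FPKM in ys 6. In both genes ys 5 and ys 6 stood apart from the other 3 libraries.

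Gene IDs carry a prefix, Cm00 to Cm12, and a running number. The prefix Cm08 held 11 of the 58 genes (19.0%) and 7.64% of all gene models. Cm01 followed with 9 genes (15.5%, against 13.2% of the gene models), and Cm04 with 6 (10.3%, against 8.07%). Cm12 held 1 gene and Cm00 held 0, with 6.37% and 2.95% of the gene models. Prefix shares were not tested. By level the order was another one, since Cm11G01270 gave Cm11 16.8% of the summed level of the 58 genes with only 4 of them, against 13.3% for Cm08.

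The genes at the next lower and next higher ID number were far less abundant. The rule makes this likely, since only 0.171% of all gene models are among the 58. All 116 such neighbours were in the table, and none was itself among the 58. Their median level was 8.42 FPKM, against 2.21 FPKM for all gene models. A level of at least 10 FPKM was reached by 45.7% of the neighbours and 35.2% of all gene models, and a level of at least 100 FPKM by 10 neighbours (8.62%) and 5.53% of all. Those shares were not tested. For 50 of the 58 genes, neither neighbour reached 100 FPKM, and the like share for all gene models was not computed.

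Of the neighbours, 8 had more than 10% of the level of the abundant gene beside them. The highest was Cm03G00649, next to Cm03G00650, with 19.9% of its level. It had 563.6 FPKM in yh, against 452.2 FPKM in ys 1, 398.2 FPKM in ys 2, 692.3 FPKM in ys 5 and 728.8 FPKM in ys 6. As in Cm03G00650, ys 5 and ys 6 were highest and ys 1 and ys 2 lowest. The second, Cm05G01866 beside Cm05G01865, had 18.1% of its neighbour's level, with 304.1 FPKM in yh and 255.8 ± 15.2 FPKM in ys (SD, n = 4). Cm08G01594, beside Cm08G01595, had 324.7 FPKM in yh, against 394.9 FPKM in ys 1, 374.6 FPKM in ys 2, 247.8 FPKM in ys 5 and 318.4 FPKM in ys 6. It was thus higher in ys 1 and ys 2, the opposite of Cm08G01595.

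Of the 53 neighbours averaging 10 FPKM or more, 28 were shifted in ys 1 and ys 2, relative to the other ys pair, in the same direction as the abundant gene beside them (52.8%). Among all 5516 pairs of adjacent IDs that both averaged 10 FPKM or more, 54.0% shared a direction, and the shares were not tested against each other. Beside the leading gene Cm11G01270, Cm11G01271 had 23.8 FPKM in yh, against 78.4 FPKM in ys 1, 114.6 FPKM in ys 2, 21.6 FPKM in ys 5 and 15.3 FPKM in ys 6. The low values in yh, ys 5 and ys 6 have no counterpart in Cm11G01270.

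A neighbour was also among the calls of yh against ys, which were 0.0106% of the 18871 genes tested. Cm01G01752, the next ID after Cm01G01751, had 0.79 FPKM in yh, against 11.5 FPKM in ys 1, 11.4 FPKM in ys 2, 10.4 FPKM in ys 5 and 12.4 FPKM in ys 6. It fell in yh (log2 fold change -2.79, SE 0.14, limma adjusted p = 0.029), the only neighbour of the 78 tested that passed. The call ended when any of ys 1, ys 2, ys 5 or ys 6 was left out (limma adjusted p between 0.12 and 0.24, with log2 differences of -2.83 to -2.76), without the filter (adjusted p = 0.15) and with a pseudocount of 5 (adjusted p = 0.087). Cm01G01751 itself had 1491 FPKM in yh, against 1032 FPKM in ys 1, 1128 FPKM in ys 2, 1357 FPKM in ys 5 and 1406 FPKM in ys 6. It was highest in yh, as were 21 of the 58 genes, with a log2 difference from ys of 0.29. A link between Cm01G01751 and Cm01G01752 was not tested.

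**Figure D4:**
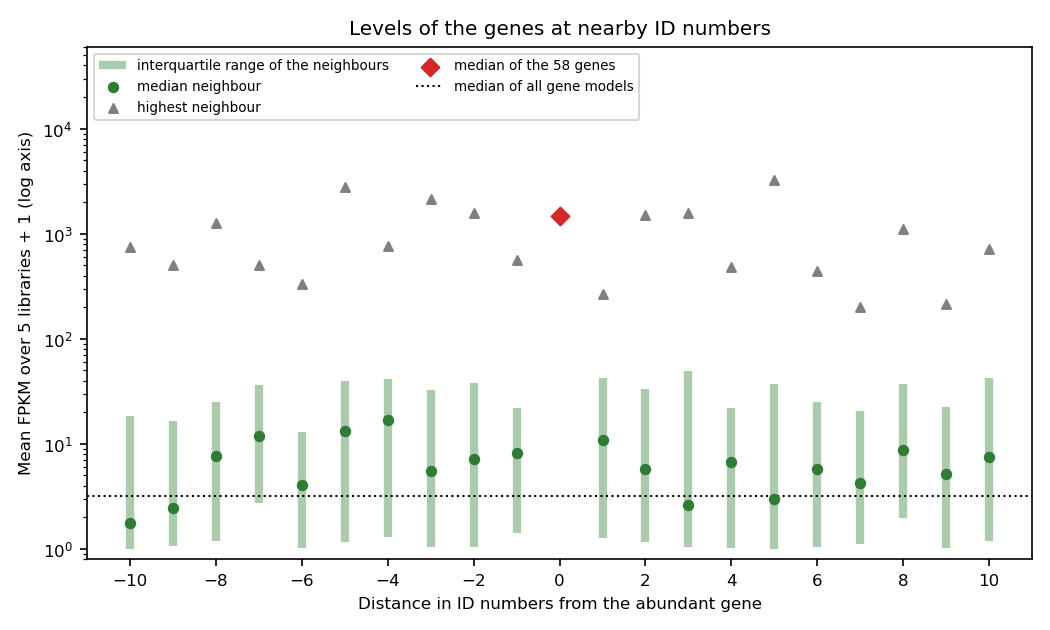
Mean FPKM over the 5 libraries plus 1, on a log axis, of the genes up to 10 ID numbers away from each of the 58 abundant genes, as medians (circles), the interquartile range (bars) and the highest gene (triangles) at each distance. Medians lie between 0.758 and 16.0 FPKM at every distance, against 1487 FPKM for the 58 genes themselves and 2.21 FPKM for all gene models.

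Of the 58 genes, 7 lay within 10 ID numbers of another one, in 3 runs, and the like share for other sets of genes was not computed. The first run holds Cm02G02562 and Cm02G02570, 8 numbers apart. Cm02G02562 had 1338 FPKM in yh, against 1104 FPKM in ys 1, 1160 FPKM in ys 2, 1351 FPKM in ys 5 and 1314 FPKM in ys 6. Cm02G02570 had 1198 FPKM in yh, against 981.4 FPKM in ys 1, 1008 FPKM in ys 2, 1184 FPKM in ys 5 and 1139 FPKM in ys 6. Both were lowest in ys 1 and ys 2, and their ratio stayed between 1.12 and 1.15 in the 5 libraries.

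The second run holds Cm04G00009 and Cm04G00014, 5 numbers apart. Cm04G00009 had 2121 FPKM in yh, against 3383 FPKM in ys 1, 3624 FPKM in ys 2, 2161 FPKM in ys 5 and 2577 FPKM in ys 6. Like Cm04G00014 it was highest in ys 1 and ys 2. The ratio of Cm04G00009 to Cm04G00014 was 0.871 in yh and between 0.835 (ys 1) and 0.892 (ys 5) in the ys libraries. Reads that fit both genes of a run, if they are copies of each other, could be counted for either, which was not tested.

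The remaining run did not move together. It holds Cm08G01595, Cm08G01598 and Cm08G01600. Cm08G01598 had 1819 FPKM in yh, against 1380 FPKM in ys 1, 1201 FPKM in ys 2, 1574 FPKM in ys 5 and 1846 FPKM in ys 6. Cm08G01600 had 1701 FPKM in yh, against 1597 FPKM in ys 1, 1600 FPKM in ys 2, 1191 FPKM in ys 5 and 1495 FPKM in ys 6. Cm08G01595 and Cm08G01598 were lowest in ys 1 and ys 2, where Cm08G01600 was above its level in ys 5 and ys 6. The ratio of Cm08G01595 to Cm08G01600 ran from 0.719 in ys 2 to 2.40 in ys 5.

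**Figure D5:**
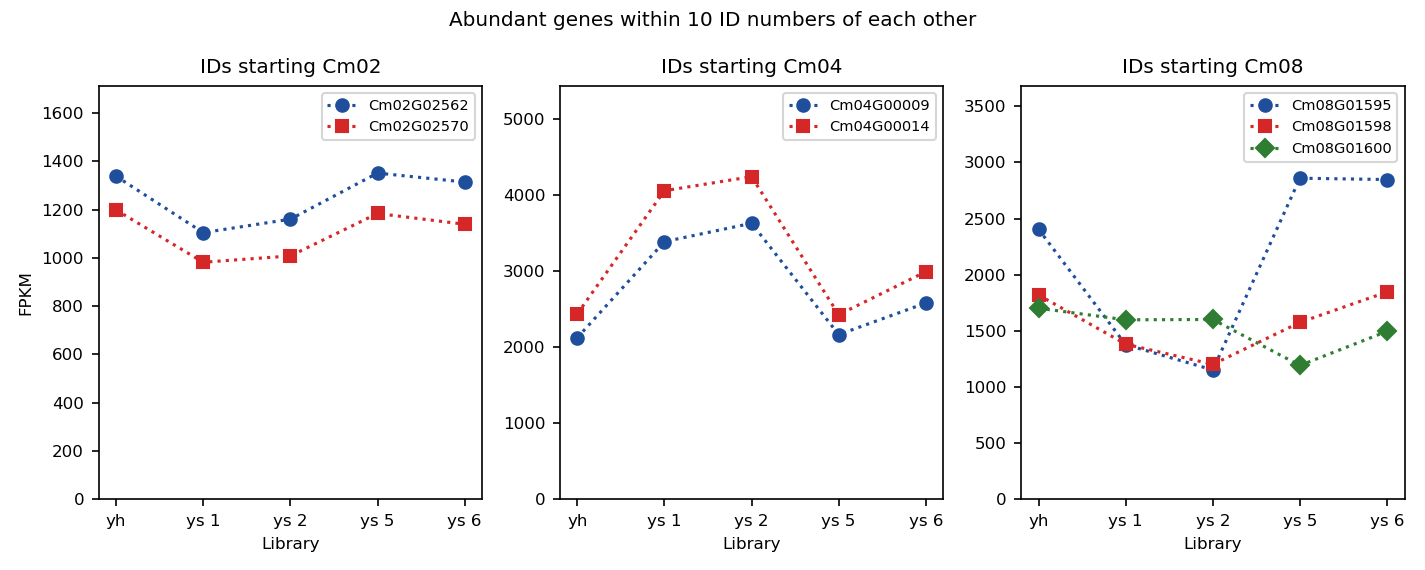
FPKM in each library of the 7 abundant genes that lie within 10 ID numbers of another, 1 panel per run, with dotted lines joining the values of 1 gene and the vertical axis starting at 0. The pairs on the left and in the middle keep ratios of 1.12 to 1.15 and 0.835 to 0.892, while the 3 genes on the right cross.

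With 5 libraries, co-variation is given as the SD of the log2 ratio of 2 genes, which is 0 where a ratio never changes. Over the 1653 pairs of the 58 genes this SD ran from 0.015 to 1.05, with a median of 0.198. The steadiest ratios joined genes from different parts of the ID range, as nearly all of the 1653 pairs do. Cm07G00759 had between 1.39 and 1.43 times the level of Cm06G00965 (SD 0.015), Cm03G01921 between 1.23 and 1.26 times that of Cm02G02570 (SD 0.018), and Cm11G00992 between 1.75 and 1.81 times that of Cm08G01266 (SD 0.019). Each of these 6 genes was lower in ys 1 and ys 2 than in ys 5 and ys 6.

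The runs of nearby IDs did not all stand at the steady end. The ratio of Cm02G02562 to Cm02G02570 ranked 8 and that of Cm04G00014 to Cm04G00009 ranked 29 of 1653, from steadiest to least steady. Those within the Cm08 run ranked 1330, 1401 and 1641. Cm04G00009 and Cm04G00014 had the steadiest ratio (SD 0.035) among the 15 genes whose own SD over the 5 libraries was at least 0.2. The least steady ratio of all was that of Cm08G01595 to Cm01G00602 (SD 1.05), which ran from 0.447 to 1.80. The level of these genes in other organs of the tree was not analysed here.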

How the data were processed

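The authors deposited FPKM values per gene model, made with FastQC 0.11.9, Trimmomatic and STAR 2.7.10b, per the submitters' processing notes and the design text. The genome build, annotation and FPKM program were not given in the sources used here. Values carry 2 decimals. The 7 columns were matched to samples by the run number in their titles; 206 other run columns match no sample and were not used here. Identical columns were merged. The 58 genes and all lists and rules were chosen with earlier results of these data known.

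For yh against ys, limma 3.58.1 in R 4.3.3 was run with trend on log2(FPKM + 1). The 18871 genes averaging 1 FPKM or more were tested, and all 58 genes passed this filter. Two-sided p-values were adjusted by Benjamini-Hochberg over all genes tested, with a threshold of 0.05. There were 3 residual and 2.51 prior degrees of freedom. Fold changes refer to log2(FPKM + 1), a scale that understates those of low genes. All other values are descriptions computed in Python 3.11.15 with pandas 2.3.3. Genes were named by rule: the 10 highest, those beside the threshold, the extremes of spread and fold change, the ID neighbours and the steadiest pairs; others are named because a count of few genes called for it. Gene lists by function could not be used, since no ID has a name.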

Additional observations from a re-analysis of the deposited data

Results flagged for a closer look

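Of the 58 genes, 1 had a ys library far from the other 3. Cm01G04296 had 1184.33 FPKM in ys 1, against 1154.75 to 1159.68 FPKM in ys 2, ys 5 and ys 6, and 1049.48 FPKM in yh. The gap to the nearest library was 0.833 of the whole ys range, just past the critical value of Dixon's test. Chance alone puts about 5% of unselected measures past it. The range is narrow, since this gene had the second smallest SD in ys.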

How the results depend on the processing

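No paired analysis was possible because yh has a single library and the replicate numbers were given in accession order. The number of abundant genes was 238 at a threshold of 500 FPKM and 16 at 2000 FPKM, 48 when every library had to reach 1000 FPKM, 64 by the median and 60 over all 7 columns, and it ran from 59 to 63 without 1 library, with 57 or 58 of the same genes. For yh against ys, 0 of the 58 genes were called under each of 12 alternatives: pseudocounts of 0.1 and 5, tests without the filter or with one at 5 FPKM, 3 scalings, identical columns counted separately, and each ys library left out. At most 1 gene had an unadjusted p under 0.05. Under these, the median fold change of the 58 genes stayed between 0.045 and 0.115, and the 4 fold changes named kept their direction. The genes split between the ys pairs numbered 48 to 52 under other scalings. Median-of-ratios scaling gave 40 below and 10 above, and the shares of all genes tested were not computed under these scalings. The selections by single pairs or by yh were added after the data were seen. Genes within 1 ID number of another numbered 0, which follows from the narrower window, with 5 within 5 and 7 within 20. The smallest SD of a ratio ran from 0.0049 to 0.0124 without 1 library, and fewer libraries make a small SD easier to reach. The pair named as steadiest, Cm07G00759 and Cm06G00965, stayed so without yh but was replaced by another pair when any 1 ys library was left out; the 3 pairs named remained among the 20 steadiest each time. Depth is unknown, which limits what can be said of neighbours near 0.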

Other observations

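A further 26 gene models reached 1000 FPKM in at least 1 library but not on average. In 17 of them neither ys 1 nor ys 2 reached it, and in 8 none of yh, ys 5 and ys 6 did. More libraries stood on the side of yh, ys 5 and ys 6, so these counts are not on equal terms. The one with the lowest mean, Cm07G00667, had 848.9 FPKM in yh, against 1023 FPKM in ys 1, 716.6 FPKM in ys 2, 592.5 FPKM in ys 5 and 604.4 FPKM in ys 6, so ys 1 and not the pair of ys 1 and ys 2 stood out.

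Of the 78 tested genes at the next ID to one of the 58, 16 (20.5%) had a level in yh above all 4 ys libraries, close to the 19.6% of all genes tested. The 2 with the largest log2 difference from ys are named here after their values were seen. Cm02G01202, next to Cm02G01201, had 48.3 FPKM in yh and 7.45 ± 1.77 FPKM in ys (SD, n = 4; limma adjusted p = 0.41). Cm08G01601, next to Cm08G01600, had 204.2 FPKM in yh and 108.1 ± 13.1 FPKM in ys (SD, n = 4; limma adjusted p = 0.97). Neither passed the test.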
